A study of Drosophila melanogaster with 2 samples.

Results

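The regions described here are the peaks of CG11247-eGFP whose summit, the base of highest signal, lay inside an exon of a protein-coding transcript and more than 500 bp from every protein-coding transcription start site (TSS). There were 240 of them among the 4476 passing summits on the major chromosome arms, which is 5.36%. Passing peaks are those of the authors' pooled list thresholded by the irreproducible discovery rate (IDR), a measure of how well a peak's rank repeats between inputs, and they made up 3.33% of the 134262 ranked summits on these arms. Of the 240 summits, 156 lay in a coding exon, 54 in a 3′ UTR and 30 in a 5′ UTR. The data come from chromatin immunoprecipitation and sequencing (ChIP-seq) of whole embryos of Drosophila melanogaster at 0 to 24 h of age. All flies carried a transgene for a fusion of the protein CG11247 with enhanced green fluorescent protein (eGFP), and the antibody was against GFP. There was 1 group of 2 biological replicates, no second condition, and sonicated DNA of 200 to 800 bp. The labels name neither the promoter that drives the transgene nor the cells that hold the fusion protein, and the control experiment they name was not analysed here.

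CG11247 belongs to the C2H2 zinc-finger proteins, whose fold reads DNA through short contacts along the major groove. In fly chromatin such proteins are mostly mapped to promoters, enhancers and insulators, while coding exons and UTRs are transcribed sequence. In coding exons nucleosomes are dense and base composition is richer in G and C than in the introns around them. CTCF, another C2H2 protein, is an insulator protein whose core site is well known in flies, and the letters of that site were among the words sought at the summits.

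The sequences that carry the results below are 30-base stretches within 100 bp of the summits, on dm6 and read 5′ to 3′ on the strand named. Not every stretch holds the summit base. The first set is shown because the core of the CTCF motif, AGNNGGCGC, was more frequent at these summits than beside them. Capitals mark the match nearest to the summit. The kind of exon named is that of the summit, not of every base shown. At CG10357 the exon edge lay 59 bp from the summit, and the stretch and its capitals run across that edge into the intron. The first 6 belong to peaks that passed in both replicates, and the last 2 to peaks that passed in neither replicate alone. The peaks of otp, Mef2 and Cam also hold the letters and passed in both replicates, and are not shown.
CG10357, coding exon, chr3L:3616466-3616495, minus strand: ataatagtacaAGGTGGCGCtagtaaaata
Pde1c, coding exon, chr2L:11816558-11816587, minus strand: gcggagccggcAGATGGCGCtgcggcctaa
ush, 5′ UTR, chr2L:490208-490237, minus strand: gctttccgcatAGATGGCGCcccagaaagg
klar, coding exon, chr3L:506154-506183, minus strand: ggacacttgcaAGGAGGCGCgctgtgagat
raskol, 3′ UTR, chrX:17751916-17751945, plus strand: attcaagagtAGAGGGCGCcgcttactttt
Hr4, 3′ UTR, chrX:2006000-2006029, minus strand: tctctaaatacAGGTGGCGCcactgaggaa
LpR1, coding exon, chr3R:25759016-25759045, plus strand: aggagattgaAGTTGGCGCatgcgcagcgg
grn, coding exon, chr3R:8179486-8179515, plus strand: ctgcccgccgAGCTGGCGCcgctggagagg
The next pair is shown because CAG repeats, CAGCAGCAG in capitals, were also more frequent at the summits than beside them.
InR, coding exon, chr3R:21580242-21580271, minus strand: agcagtagcaaCAGCAGCAGctgtcaagca
wdb, coding exon, chr3R:27565664-27565693, minus strand: tgaactctcatCAGCAGCAGtcgaatagcg
The last 4 are summits of the strongest UTR peaks without the CTCF letters within 100 bp, with the summit base in capitals.
baz, 5′ UTR, chrX:17178683-17178712, plus strand: ttgttaatttagttAtgtttttgtatatac
APC7, 3′ UTR, chrX:6599474-6599503, plus strand: tagtcctttatcatCcattgtctaaaagtg
by, 3′ UTR, chr3R:9528649-9528678, plus strand: tatgaatcagtggcGtttccaatagttacc
CG7872, 3′ UTR, chrX:15579796-15579825, plus strand: cattcgcgtgtttcCtaactaacttgacta

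Exonic summits were depleted among passing peaks. Away from promoters, 240 of 2397 passing summits were exonic (10.01%, Wilson 95% interval 8.87 to 11.3%). The share was 29.2% among the 114082 ranked summits outside the passing list, and the ratio of the shares was 0.342. Fisher's exact test, two-sided, gave an adjusted p of 1.27e-112, with the Benjamini-Hochberg adjustment over the 9 share tests made. These tests count peaks as units, so no p-value here measures how the replicates vary, and the intervals cover counting error only. Of the 33605 exonic ranked summits away from promoters, the 240 that passed were 0.714%. By kind of exon the share that passed was 2.22% of 1351 summits in 5′ UTRs (1.56 to 3.15%), 1.36% of 3980 in 3′ UTRs (1.04 to 1.77%) and 0.552% of 28274 in coding exons (0.472 to 0.645%). The intervals of coding exons and UTRs did not overlap, and those of 5′ and 3′ UTRs did.

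Each replicate's own list held few exonic peaks. In replicate 1, 75 of 3000 passing summits were exonic away from promoters (2.50%), and in replicate 2, 73 of 2678 (2.73%), a mean of 2.61 ± 0.160% (SD, n = 2). Both values were below the 5.36% of the pooled list, and the conservative set, which ranks the replicates against each other, lay between them with 168 of 4078 (4.12%). Coding exons gave 31 of the 75 summits in replicate 1 and 34 of the 73 in replicate 2, against 156 of the 240 in the pooled list. The share from coding exons was therefore lower in either replicate alone than in the pooled list.

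Support by both replicates was less frequent for exonic peaks than for other peaks away from promoters. Of the 240 peaks, 64 shared at least 1 bp with a passing peak of replicate 1 (26.7%) and 59 with one of replicate 2 (24.6%). Both replicates supported 37 of them (15.4%, 11.4 to 20.5%), against 884 of 2157 intronic and intergenic peaks (41.0%, 38.9 to 43.1%). The ratio was 0.376 (Fisher's exact test, adjusted p = 1.24e-15). Over all passing peaks the share was 45.6%. Neither replicate supported 154 of the 240 exonic peaks, against 1125 of all 4476 passing peaks and 599 of the 2157 intronic and intergenic peaks. The 154 were 120 of 156 coding peaks and 34 of 84 UTR peaks. Among the 40 exonic peaks with a signal above the median of all passing peaks, both replicates supported 77.5%, against 82.2% of the intronic and intergenic peaks of that strength, a difference that did not pass (Fisher's exact test, adjusted p = 0.543).

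Coding exons and UTRs differed in this support. Both replicates supported 8 of 156 coding peaks (5.13%, 2.62 to 9.79%) and 29 of 84 UTR peaks (34.5%, 25.2 to 45.2%). This comparison was chosen after the values had been seen, and with adjustment over the 3 tests of coding exons against UTRs Fisher's exact test gave an adjusted p of 7.82e-09. Within UTRs the share was 15 of 30 in 5′ UTRs (33.2 to 66.8%) and 14 of 54 in 3′ UTRs (25.9%, 16.1 to 38.9%). UTR peaks alone did not pass against intronic and intergenic peaks (Fisher's exact test, adjusted p = 0.345). Presence of the same peak in the conservative set is another measure, and gave higher shares. That set held 67 of 156 coding peaks (42.9%) and 59 of 84 UTR peaks (70.2%). It held 52.5% of all exonic peaks, against 80.9% of intronic and intergenic peaks, a comparison given without a test. Among peaks above the median signal, both replicates supported 6 of 8 coding peaks and 78.1% of UTR peaks, which did not pass either (Fisher's exact test, adjusted p = 1).

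**Figure D1:**
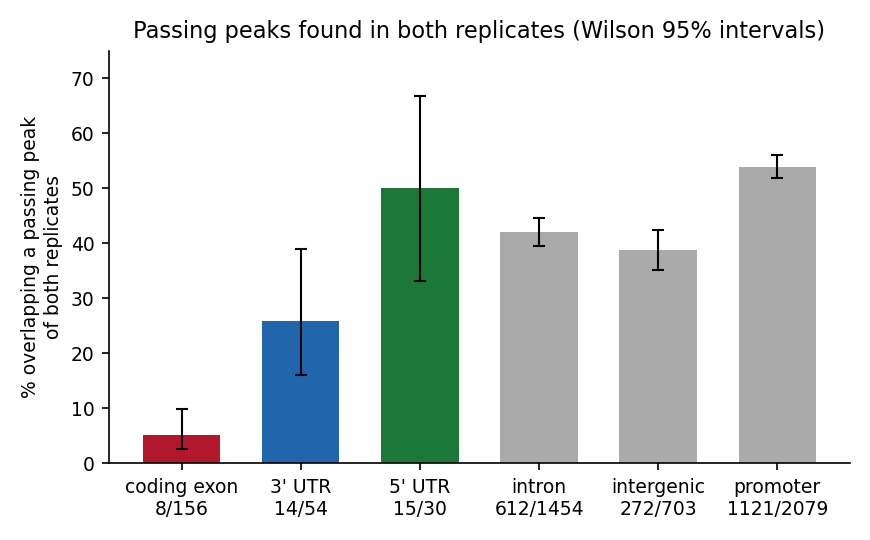
Share of passing peaks that overlap a passing peak of both replicates, in percent, by place of the summit. Bars are shares, lines are Wilson 95% intervals, and the counts stand under each bar: coding exons were lowest at 5.13%, and the interval of 5′ UTRs, 33.2 to 66.8%, overlapped those of introns, intergenic sequence and promoters.

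Exonic peaks were also weaker. The peak signal is the authors' score, has no fixed range and is compared only within a list. The median was 85.4 over the 240 peaks, with an interquartile range of 77.1 to 102, against 120.5 over all passing peaks. By place it was 82.6 in coding exons, 93.4 in 3′ UTRs and 127 in 5′ UTRs, against 116 in introns, 107 between genes and 137 at promoters. A signal above the median of all passing peaks was found for 40 exonic peaks (16.7%) and for 973 of the 2157 intronic and intergenic peaks (45.1%), a ratio of 0.369 (Fisher's exact test, adjusted p = 3.24e-18). Coding peaks reached it in 8 of 156 cases (5.13%) and UTR peaks in 32 of 84 (38.1%), a further comparison chosen after the values had been seen (Fisher's exact test, adjusted p = 5.85e-10). In replicate 2 alone this difference did not pass, with 14.7% of coding and 33.3% of UTR peaks (Fisher's exact test, adjusted p = 0.153). The 38.1% of UTR peaks did not pass against the 45.1% of intronic and intergenic peaks (Fisher's exact test, adjusted p = 0.345).

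**Figure D2:**
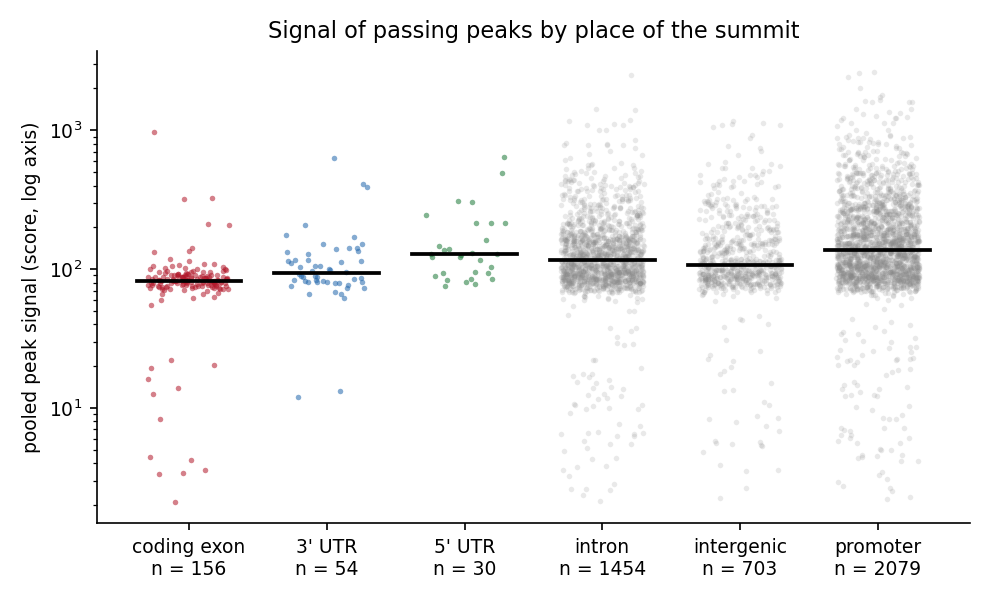
Pooled peak signal (the authors' score, log axis) of every passing peak by place of the summit, with 1 point a peak and a black line at the median. The coding peaks crowd around their median of 82.6, while 5′ UTR peaks have a median of 127, and the 15 exonic points under 30 overlap a stronger passing peak.

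The range within the group was wide but thinly filled. The 225 exonic peaks that overlapped no stronger passing peak had signals from 55.3 to 974, and 160 of them lay between 60 and 100. Only 64 reached 100 and 17 reached 200, of which 5 were in coding exons. The other 15 peaks overlapped a stronger passing peak and had signals of 2.11 to 22.2, and for 12 of these the stronger peak was itself exonic. Such overlaps were at 6.25% of exonic and 4.78% of intronic and intergenic peaks, a difference that did not pass (Fisher's exact test, adjusted p = 0.386). The peaks were 344 bp wide in 228 cases and as narrow as 106 bp in the rest.

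The strongest exonic peak lay in the last exon of otp, which encodes a homeodomain transcription factor of the developing nervous system and gut. Its pooled signal was 974, rank 45 among passing peaks, with 517 in replicate 1 and 450.1 in replicate 2. It stood alone among coding peaks, since the next in a coding exon were CG10357 at 323 (170 and 155 in replicates 1 and 2) and Pde1c, a calmodulin-regulated phosphodiesterase of cyclic nucleotides, at 319 (162 and 147). Further coding peaks above 200 were in l(3)mbn at 213 (95.2 and 113) and in klar, whose product positions nuclei along microtubules, at 209 (87.3 and 120). All of these passed in both replicates. Tim17b1, which encodes a subunit of the mitochondrial protein import machinery, had a coding peak of 141 (64.7 and 79.2), also passing in both.

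In 5′ UTRs the strongest peak was at baz, which encodes the polarity scaffold Bazooka, with a pooled signal of 641 and values of 414 and 225 in replicates 1 and 2. The gene held 3 exonic peaks, all in 5′ UTR exons, and the others had pooled signals of 128.4 each. Of these the peak of 59.98 and 63.1 in the replicates passed in both, and the peak of 50.4 and 78.8 passed in replicate 2 only. Mef2, the gene of a transcription factor of muscle differentiation, followed at 488 (273 and 221). Next came cic, the gene of the repressor Capicua, at 308 (166 and 137) and Fbl6, an F-box gene, at 304 (183 and 114). These 4 genes each passed in both replicates with their strongest peak, and only baz had more than a single exonic peak among them.

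Weaker 5′ UTR peaks that passed in both replicates belonged to genes of varied roles. The kinase gene eas, whose product acts on ethanolamine, had 246 (161 and 83.6). CAP, an adapter protein gene with a further exonic peak, had 215 (112 and 122), and ush, the gene of a zinc-finger partner of GATA factors, 214 (106 and 109). CG15247 had 214 (133 and 84.7) and the histone kinase gene JIL-1 163 (93.0 and 65.7). Raf and Pi3K92E, kinases of growth signalling, had 146 (83.7 and 67.0) and 139.9 (62.5 and 69.3). In all of these the signal of each replicate was above 60, beside a lowest decile of passing peaks of 53.8 in replicate 1 and 52.4 in replicate 2.

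In 3′ UTRs the strongest peak was at APC7, the gene of a subunit of the anaphase-promoting complex, with a pooled signal of 635 and 344 and 293 in replicates 1 and 2. The focal adhesion gene by, which encodes the fly tensin, had 408 (236 and 164) and CG7872 had 390.4 (203 and 189). Cam, the calmodulin gene, had 209 (101 and 115). Further 3′ UTR peaks that passed in both replicates were those of stas at 177, CG5895 at 170.4, CG8206 at 152, the axon guidance gene NetB at 151 and Tctp at 141. The peak of scf, 142, passed in replicate 1 at 101 and not in replicate 2 at 48.7. APC7 was the highest of these in both replicates, while by was above CG7872 in replicate 1 and below it in replicate 2.

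**Figure D3:**
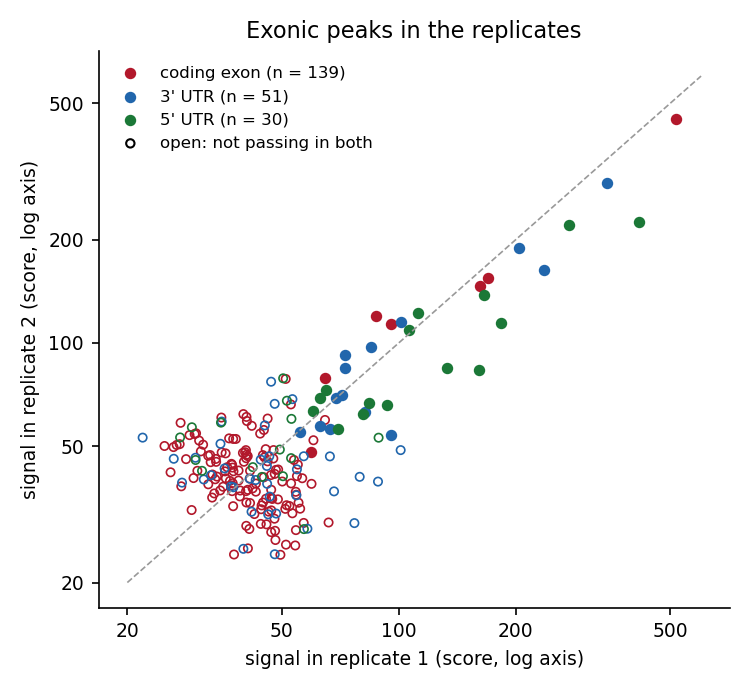
Signal of each exonic peak in replicate 1 and replicate 2 (the authors' score, log axes), for the 220 peaks that overlap no stronger passing peak and have a ranked peak in both replicates. Filled points passed in both replicates, and all points were selected by the pooled list. Most coding peaks form a cloud with no common trend around signals of 30 to 60, and the filled points follow the dashed line of equal values.

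The replicates' signals were also compared across exonic peaks. Over the 220 peaks without a stronger overlapping peak and with a ranked peak in both replicates, Spearman's rho was 0.233, a description across peaks of the same libraries. It was -0.175 over the 139 coding peaks and 0.585 over the 81 UTR peaks, against 0.673 over 2031 intronic and intergenic peaks. Over the 36 of the 220 peaks that passed in both replicates it was 0.837. All of these peaks come from the pooled list, which was made from the reads of both replicates. Pooled signals of coding peaks had a narrow interquartile range, 75.2 to 90.6. It was 83.1 to 139 in UTRs and 87.3 to 167 for intronic and intergenic peaks. Selection on a pooled value lowers rho where that range is narrow, and the 36 were also selected on both replicates. The coefficients therefore do not compare reproducibility between places. The medians over exonic peaks were 44.9 in replicate 1 and 43.6 in replicate 2, above the medians of 16.5 and 16.1 over all ranked peaks and below the lowest decile of the replicates' own passing peaks.

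Coding summits stood in a local rise of GC content. Within 50 bp of the summit, coding peaks had 59.9 ± 0.531% GC (SE over 156 peaks), which was 16.8 ± 0.895 percentage points above windows centred 500 bp to each side. Coding ranked summits that did not pass had 55.3% and a rise of 7.37 ± 0.0571 points. The rises differed in the flanks as well as at the summits, since flank GC was 43.1% for passing and 47.9% for other coding summits. Median exon lengths were 774.5 and 995 bp. In 3′ UTRs the passing summits had 45.9% and a rise of 7.80 ± 1.87 points, and in 5′ UTRs 44.9% and 3.02 ± 2.53 points. Passing intronic summits had the opposite sign, with 4.29 points less GC than their flanks (-4.29), as did promoter summits (-6.51). Over all exonic peaks 204 of 240 (85%) were richer in GC than their flanks, against 74.99% of the other exonic ranked summits (Fisher's exact test, adjusted p = 0.000409).

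The rise in GC content was more frequent in coding exons than in UTRs. It was present at 146 of 156 coding summits (93.6%) and at 58 of 84 UTR summits (69.0%), a comparison chosen after the values had been seen (Fisher's exact test, adjusted p = 9.03e-07). Among the 40 exonic peaks above the median signal the share was 52.5%, below the 74.99% of exonic summits that did not pass, a difference in the opposite direction (Fisher's exact test, adjusted p = 0.00725). In the conservative set it was 78.0% and did not pass (Fisher's exact test, adjusted p = 0.475). In replicate 1 alone it was 69.3% and in replicate 2 alone 69.9%, both below the share among summits that did not pass and neither past the threshold. Coding peaks were 8 of the 40, 31 of 75 in replicate 1 and 34 of 73 in replicate 2. In replicate 1 alone 96.8% of coding and 50% of UTR peaks had the rise, and in replicate 2 alone 88.2% and 53.8%. Both differences passed (Fisher's exact test, adjusted p = 2.21e-05 and 0.00573). Among the 40 it was 6 of 8 coding and 46.9% of UTR peaks, which did not pass (Fisher's exact test, adjusted p = 0.723). Coding summits outside the passing list had 76.6%. The strong UTR peaks at APC7 and baz had 23.8% and 21.8% GC within 50 bp of the summit, while the coding peaks at otp and Pde1c had 63.4% and 69.3%.

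**Figure D4:**
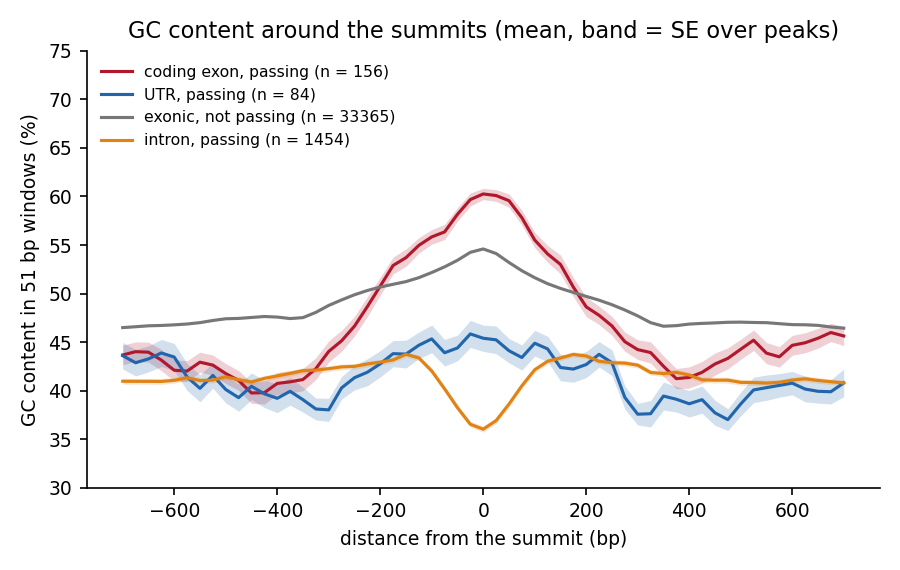
Mean GC content in 51 bp windows by distance from the summit, with bands of 1 SE over peaks. At the summit the mean was 60.3% for passing coding peaks, which had 41.8% and 44.3% at 500 bp to each side, 54.6% for exonic summits that did not pass, 45.4% for UTR peaks and 36.0% for passing intronic peaks.

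Of the 13 known words sought within 100 bp of the summits on both strands, 4 differed from flanking windows of the same width. The CTCF letters AGNNGGCGC were present at 23 of 240 summits (9.58%, 6.47 to 13.97%) and in 12 of 480 flanking windows (2.50%), a ratio of 3.83 (Fisher's exact test, adjusted p = 0.000297 over the 13 words). CAG repeats, CAGCAGCAG, were present at 8.75% against 1.88% (Fisher's exact test, adjusted p = 0.000222). TATAAA, of the TATA box, was less frequent at the summits, with 5.83% against 25.2% (Fisher's exact test, adjusted p = 2.46e-10). The homeodomain core TAATTA was also less frequent, with 6.25% against 13.5% (Fisher's exact test, adjusted p = 0.0116). A match describes letters only and is not a binding site. With replicate 1 alone the CTCF letters were at 16% of exonic summits against 4.67% of flanks and no longer passed (Fisher's exact test, adjusted p = 0.0577). In the stronger 50% of passing peaks they were at 20% against 5%, which did not pass either (Fisher's exact test, adjusted p = 0.229).

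The choice of comparison mattered for these words. Against the 33365 exonic ranked summits that did not pass, a set chosen as background after the data had been seen, the CTCF letters were again more frequent, with 9.58% against 4.38% and a ratio of 2.19 (Fisher's exact test, adjusted p = 0.00864). TAATTA turned from less to more frequent, with 6.25% against 2.76% (Fisher's exact test, adjusted p = 0.0278). CAGCAGCAG (8.75% against 6.09%) and TATAAA (5.83% against 5.63%) did not pass, with adjusted p of 0.357 and 0.962 in Fisher's exact test. The share with the CTCF letters, themselves rich in GC, also varied with the GC content at the summit. Between 55 and 65% GC the CTCF letters were at 13 of 108 passing summits (12.04%) and at 5.86% of others, and below 45% GC at 4 of 41 (9.76%) and at 1.44% of others. From 45 to 55% GC they were at 2 of 59 (3.39%) against 2.59%, and from 65% upwards at 4 of 32 (12.5%) against 10.8%.

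The other 9 words did not differ from the flanks past the threshold. DRE letters, TATCGATA, were at 0.417% of the summits, 1.88% of flanks and 0.123% of other exonic ranked summits. CGATA, which the DRE contains and which BEAF-32 reads, was at 18.3%, 26.3% and 21.7%. Motif 1, GGTCACACT, was at 0 of 240 summits, where a floor of 3 counts allows a share of up to 1.25% and the Wilson interval reaches 1.58%, and at 0.208% and 0.0839% of the others. CAGCTG, an E-box, was at 13.8%, 9.17% and 16.01%, and CAGGTA, the Zelda core, at 3.75%, 3.96% and 6.32%. GAGAGA was at 6.67%, 7.92% and 5.23%, and TTGCATA, from the Su(Hw) site, at 2.50%, 5.42% and 1.77%. GCCAT, the core of the Pho site, was at 41.3%, 32.5% and 43.6%, and Motif 7 at 2.92%, 1.04% and 2.71%.

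The CTCF letters were concentrated in peaks that both replicates supported. They were at 9 of the 37 supported summits (24.3%, 13.4 to 40.1%) and at 14 of the other 203 (6.90%, 4.15 to 11.2%), with an unadjusted p of 0.00313 in Fisher's exact test, a comparison chosen after the data had been seen. At least 2 matches were found at 6 of the 37 and at 1 of the 203. With support left aside, the share with these letters was 9.58% over exonic peaks and 4.42% over all passing summits. By place it was 3.30% in introns, 7.97% between genes and 3.42% at promoters. The share among supported peaks of these other places was not tested, so the 24.3% has no counterpart there. The 9 supported peaks were those of otp and Mef2 with 2 matches each, CG10357 with 1, Pde1c and ush with 2 each, klar with 3, Cam with 2, and raskol and Hr4 with 1 each. Pooled signals of this set ran from 974 at otp to 112 at Hr4, the gene of a nuclear receptor. Among the 14 others LpR1, the gene of a lipoprotein receptor, had 96.4 and grn, the gene of a GATA factor, 95.8.

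Exonic peaks lay closer to transcript ends than other exonic summits. Within 500 bp of the end of a protein-coding transcript lay 76 of 240 (31.7%, 26.1 to 37.8%), against 19.3% of the other exonic ranked summits, and the ratio was 1.64 (Fisher's exact test, adjusted p = 1.19e-05). In 3′ UTRs it was 42 of 54 (77.8%) against 52.7%, with a median distance of 242 bp against 467 bp. Coding peaks taken alone were at 20.5%, which did not pass against the 19.3% of all other exonic summits (Fisher's exact test, adjusted p = 0.782). Among coding summits that did not pass the share was 15.4%, a comparison given without a test. From past 500 bp to 1000 bp from a TSS lay 72 peaks (30%) against 23.7% (Fisher's exact test, adjusted p = 0.0348), a call that was lost in each replicate alone, in the conservative set, in the stronger 50% of peaks and in coding exons or UTRs alone. In 5′ UTRs 20 of 30 summits lay there, against 42.5% of 5′ UTR summits that did not pass. A noncoding gene was within 500 bp of 7 peaks (2.92%) and of 3.19% of the others (Fisher's exact test, adjusted p = 1).

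By place in the transcript, the first exon held 12.5% of the peaks and 5.46% of other exonic summits, and the last exon 37.5% and 31.9%. Internal exons held 43.8% and 56.7%. Only 23 of the 240 summits lay within 50 bp of an exon edge (9.58%), against 12.7% of the others. The limit of 500 bp fell among peaks of unlike strength. Just past it lay coding summits of BI-1 at 502 bp (signal 62.4), CG7650 at 506 bp (108), CG8925 at 509 bp (3.37) and CG8180 at 511 bp (74.1). Just inside it, and so not counted, lay Dhpr at 487 bp (81.7), not and ph-p at 476 bp (78.0 and 693) and amn at 472 bp (146). At the IDR limit, a −log10 value of 2, the lowest exonic peaks were at 2.0010 in exons shared by Oga and CG3337, 2.0037 in scrib and 2.0040 in Rcd5. Just under it were summits in mAChR-A at 1.9997, RpL35 at 1.9957 and CG14118 at 1.9953.

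Near the CG11247 gene passing peaks were frequent, among exonic summits and among all ranked summits. Within 50 kb of the gene (chr3L:21724326-21728806, minus strand), which encodes the tagged protein, lay 6 of the 240 peaks (2.50%, 1.15 to 5.35%), against 7 of 2157 intronic and intergenic peaks (0.325%), a ratio of 7.70 (Fisher's exact test, adjusted p = 0.00133). Of 27 exonic ranked summits there, 6 passed (22.2%, 10.6 to 40.8%), against 0.697% of 33578 elsewhere. Over all ranked summits in the same window 16 of 83 passed (19.3%, 12.2 to 29.04%), against 3.32% elsewhere. The interval of the exonic share covered this 19.3%, so the high share was not particular to exonic summits. The 6 peaks are neighbours at a single locus, which the test counts as separate units. The peak in a 5′ UTR exon of CG11247 itself had a pooled signal of 123, with 51.5 in replicate 1, where it did not pass, and 67.8 in replicate 2, where it did. Syn1, the gene of a syntrophin, had a coding peak of 114 (52.7 and 66.1), passing in replicate 1 only. CG32447 held a coding peak of 101 (56.4 and 40.3) and a 3′ UTR peak of 95.3 (45.2 and 57.5), and CG14565 and CG14572 had 85.8 and 85.3. None of the 6 passed in both replicates.

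Signals of all ranked peaks were higher in this window. The 83 ranked summits within 50 kb had a median signal of 51.9 (interquartile range 36.2 to 70.6), against 26.4 (15.1 to 39.8) elsewhere, a ratio of 1.97. In the replicates' own lists the ratio was 1.43 in replicate 1 and 1.67 in replicate 2. The part of this rise in the exonic peaks there was not tested. In replicate 1 alone 2 of 75 exonic peaks lay in the window (2.67%), against 0.277% of intronic and intergenic peaks (Fisher's exact test, adjusted p = 0.0634). In replicate 2 alone it was 2 of 73 (2.74%) against 0.260% (Fisher's exact test, adjusted p = 0.0622). Neither passed the threshold, on 2 peaks each.

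**Figure D5:**
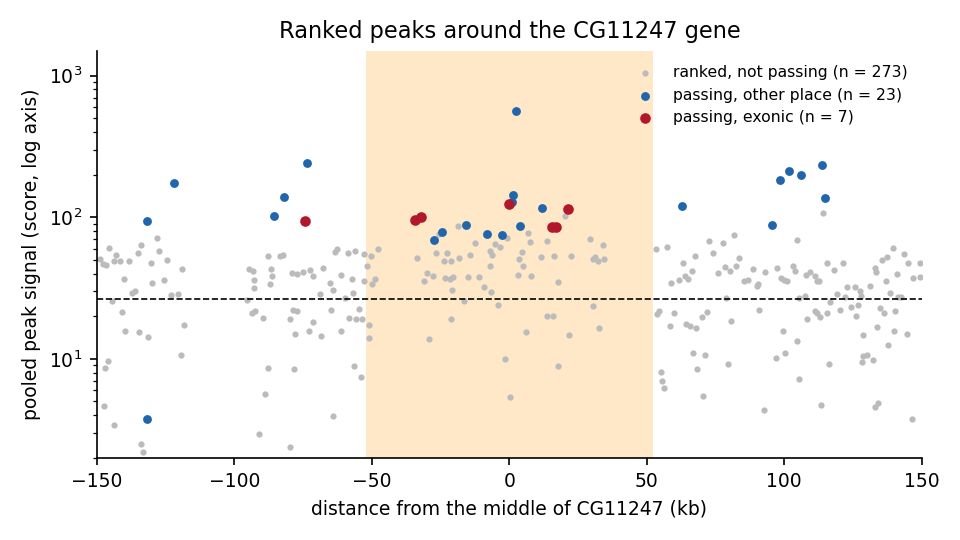
Pooled signal (the authors' score, log axis) of ranked peaks by distance from the middle of CG11247 in kb. The shaded band is the gene and 50 kb to each side and the dashed line the median of ranked peaks elsewhere, 26.4; the 6 exonic passing peaks in the band, in red, lie between 85.3 and 123.

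The 240 peaks fell in 227 genes, 2.39% of the 9498 protein-coding genes with an exonic ranked summit. A single peak was found in 209 genes, 2 in 17 and 3 in baz. Some of these repeats were overlapping peaks. Without the 15 peaks that overlap a stronger passing peak, 225 peaks fell in 224 genes. The share of genes rose with the number of exonic ranked summits a gene had, from 1.24% of genes with 1 and 1.45% with 2 to 3 to 3.23% with 4 to 7 and 6.98% with 8 or more. Of 207 genes with an exonic passing peak and a ranked promoter summit, 72 also had a passing promoter summit (34.8%, 28.6 to 41.5%), against 26.2% of the 8405 genes with an exonic and a promoter ranked summit.

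Exonic peaks were spread over gene groups. The groups were drawn up with the bound genes known, so their counts are descriptions beside the 2.39% of all genes. Ribosomal proteins held 2 of 47 (RpS26 at 101, RpL6 at 78.9), heat shock proteins and chaperones 1 of 24 (Hsp22 at 138, where exons of Hsp22 and CG4456 overlap), the cytoskeleton 1 of 15 (betaTub56D at 77.8) and cuticle proteins 2 of 42 (Cpr11A at 81.8, Cpr66Cb at 76.6). Chemoreceptors held 1 of 131 (Or43b at 115.01, where exons of Or43b and Cul1 overlap). Mitochondrial ribosomal proteins (35 genes), translation factors (39), serine proteases (19), histones (3) and the transgene marker genes (2) held none.

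Among developmental genes, homeobox and patterning genes had 2 of 79, otp at 974 and pb, a Hox gene, at 80.4. Signalling genes had 6 of 76 (7.89%), among them the kinase genes Raf at 146 and Pi3K92E at 139.9, the insulin receptor gene InR at 133 and the Toll adapter gene Myd88 at 132. Neuronal genes had 3 of 26, the netrin gene NetB at 151, the potassium channel gene Shaw at 84.0 and Gad1, for the enzyme that makes GABA, at 78.9. Muscle genes had 3 of 20, Mef2 at 488, the titin-like sls at 87.2 and TpnC73F, a troponin C, at 87.1. Polycomb and Trithorax genes had 1 of 32, Pc at 105. C2H2 zinc-finger genes had 10 of 207 (4.83%), led by ush at 214, CG11247 at 123, MESR4 at 119 and kmg at 85.9. The mean number of exonic ranked summits per gene was 3.61 for homeobox and patterning, 4.34 for C2H2, 5.58 for signalling, 7.08 for neuronal, 8.06 for Polycomb and Trithorax and 8.75 for muscle genes, against 3.62 over all genes.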

How the data were processed

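The members and gene lists were chosen with earlier results of these data known. A first version of the gene lists, drawn from genes already seen to hold exonic peaks, was discarded. The lists used are name patterns, protein patterns (at least 3 C2H2 patterns, or a homeodomain) and pathway genes, still written with the bound genes known. The deposited signal is a score from the peak caller that the authors used, the −log10 IDR of ranked peaks is the authors' own value, and the summit offset is theirs, per the listing that accompanies the files. The lists are on dm6, per the labels. The thresholded lists keep peaks with an IDR of at most 0.01 (−log10 of 2) as tested on the files, and were made with another input that has no description there. The names of the peak caller and aligner were not given in the sources used here. Read numbers are unknown, so precision rests on numbers of peaks: replicate 1 had 3010 passing of 109282 ranked peaks, replicate 2 had 2695 of 125735, and the pooled list 4495 of 137752.

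Summits on the arms of chromosomes 2 and 3 and on 4 and X were placed with Ensembl release 115 annotation on assembly release 6, the build of the lists, and sequence came from the RefSeq genome of that assembly. Promoter summits lay within 500 bp of a protein-coding TSS. The others were placed in the order 5′ UTR, 3′ UTR, coding exon, intron, intergenic. A replicate's signal at a peak is that of the strongest overlapping ranked peak of that replicate. Shares were compared with two-sided Fisher's exact tests and Benjamini-Hochberg adjustment, with a threshold of 0.05, and intervals are Wilson 95% intervals. Biological replicates are separate samples in the labels, which do not say how they were separated. Python 3.11.15, numpy 2.4.6, pandas 2.3.3, scipy 1.17.1 and matplotlib 3.10.9 were used, and the tests were checked on simulated data. Columns of samples left unused numbered 0.

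Genes named are the 25 strongest exonic peaks that overlap no stronger peak, the 4 strongest in each kind of exon, those supported by both replicates up to 25 by signal, genes with 3 or more, up to 4 a gene list by signal, and the 4 nearest to each side of the 500 bp limit. Peaks with the CTCF letters, those near CG11247, those at the IDR limit and wdb were named after their values had been seen. Alternatives were promoter distances of 200 and 1000 bp, each replicate alone, leaving out the CG11247 locus or overlapping peaks, summits within 100 bp or 50% reciprocal overlap as shared, a motif window of 50 bp, a GC window of 100 bp, the conservative set, and peaks in the stronger 50% by signal. Coding exons alone, UTRs alone, other exonic summits as background for words, and coding exons against UTRs were added after seeing the data.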

Additional observations from a re-analysis of the deposited data

How the results depend on the processing

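The depletion of exonic summits passed under all alternatives run for it. No paired analysis was possible because there is 1 group. With each replicate alone, replicate support could not be tested, and these results changed in direction, call or count. Peaks near a TSS were 27.4 to 32%, GC above flanks 69.3 to 69.9% and near CG11247 2.67 to 2.74%. Overlap with a stronger peak was 1.37% without replicate 1, and near a noncoding gene 4% without replicate 2. Words past the threshold were 0 to 2 in place of 4, and genes 71 to 72 in place of 227. In the conservative set peaks near a TSS were 28.0%, near a noncoding gene 5.36% and GC above flanks 78.0%. In the stronger 50% of peaks, replicate support was 77.5%, overlap with a stronger peak 0%, near a TSS 32.5%, GC above flanks 52.5%, near CG11247 2.5%, words 0 and genes 39, the latter by construction. With 200 bp as promoter distance, near a noncoding gene was 4.78% and GC above flanks 80.2%. With other exonic summits as background 2 words passed. The last settings were added after seeing the data, that background included. In coding exons alone, near a TSS was 30.1% and near a transcript end 20.5%. In UTRs alone, replicate support was 34.5%, signal above the median 38.1%, overlap with a stronger peak 2.38%, near a TSS 29.8%, near a noncoding gene 3.57%, GC above flanks 69.0%, near CG11247 2.38% and words 0. Some of these shares hardly moved, and only the call was lost, with fewer exonic peaks. In the main result near CG11247 was also 2.5%, and near a TSS was 30%. The cause of these changes was not tested. Of 141 recomputed values, 101 were classed as unchanged. For shares this means the same direction and side of the threshold. For the counts of words and genes, which have neither, it means a count of similar size. A signal above the median could not be tested in the stronger 50%, nor peaks near a TSS with other promoter distances, nor peaks near CG11247 without that locus. Unknown read depth limits every share.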

Other observations

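Exonic summits past the IDR limit and absent from the thresholded list numbered 3, of which 2 were in the 5′ UTR of spen with signals of 130.2 and 77.4 and 1 in a coding exon of Cyp28d2 with 84.9. By chromosome arm the 240 peaks fell 46 on 2L, 49 on 2R, 59 on 3L, 56 on 3R and 30 on X. On X this was 12.5% of the peaks against 18.8% of exonic summits that did not pass, and on 3L 24.6% against 18.6%, with 53 peaks left on 3L without the CG11247 locus. For 1 peak the central 31 bases occur more than once in the genome, and 6 peaks lie in exons of 2 genes.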
